A study of Mus musculus with 2 samples.

Results

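The genes described here are those of the osteoclast, the cell that resorbs bone and mineralised cartilage, and of the signals that call it up. They comprise 10 genes: Ctsk, Acp5, Calcr, Ocstamp, Dcstamp, Nfatc1, Tnfrsf11a, Tnfsf11, Tnfrsf11b and Csf1. Every probe set annotated with exactly 1 of these symbols was taken, which gave 20 of the array's 45037 probe sets other than controls, and none was shared with another symbol. Venus-positive and Venus-negative cells were sorted from mouse embryos that carry the Col2a1-Venus transgene (C57Bl/6 background). In these mice the fluorescent protein Venus marks chondrocytes, the cells of cartilage, and both fractions carry the transgene. Each fraction was measured on 1 Affymetrix whole-genome mouse array, so there is no replicate error and no p-value, and each difference describes this pair of arrays. For the embryos' age and number and for the gates of the sort, the sources used here give nothing.

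Osteoclasts form by fusion of cells of the monocyte and macrophage lineage. Macrophage colony-stimulating factor, encoded by Csf1, keeps their precursors alive through the receptor Csf1r. The ligand RANKL (Tnfsf11) binds RANK (Tnfrsf11a) on the precursor and drives it to become an osteoclast, while osteoprotegerin (Tnfrsf11b) is a secreted decoy that captures RANKL. RANK signalling raises the transcription factor Nfatc1, which switches on the genes for fusion and resorption. In the growth plate, chondrocytes and cells of the osteoblast lineage are known sources of RANKL and osteoprotegerin.

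Signals are linear MAS5 values in arbitrary units. A floor of 22.5, the median of all signals on both arrays, stands in for detection, and lower signals were raised to it before log2 ratios were taken (Venus-positive over Venus-negative). A gene counts as measured if either array reached the floor with 1 of its probe sets, and the probe set brightest on average (log2) stands for it. The arrays differed in brightness, with 2% trimmed means of 108 for Venus-positive and 132 for Venus-negative cells. The median log2 ratio of the 11789 measured genes was -0.33, and ratios called relative have this median subtracted. The sort was visible in Col2a1, the reporter's own gene (8443 in Venus-positive cells and 606 in Venus-negative cells), and in the cartilage regulator Sox9 (1601 in Venus-positive, 338 in Venus-negative cells). The ratio of 3′ to 5′ control signal, a measure of RNA integrity, was 1.64 in Venus-positive cells and 1.33 in Venus-negative cells for actin, and 0.740 in Venus-positive, against 0.759 in Venus-negative cells for Gapdh.

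Of the 10 genes, 6 were measured, and 4 were below the floor on both arrays. Ctsk, Acp5 and Csf1 had lower signals in Venus-positive cells, by 2.60-, 2.12- and 2.38-fold. Tnfrsf11b, the decoy receptor, was 2.31-fold higher, Nfatc1 was 1.51-fold higher and Tnfsf11 was nearly level. By gene, 3 were at least 2-fold lower, 1 at least 2-fold higher and 2 within 2-fold. Among all measured genes 11.6% were at least 2-fold lower and 2.79% at least 2-fold higher. Relative to the median gene, Ctsk alone stayed at least 2-fold lower and Tnfrsf11b alone at least 2-fold higher, against 6.45% and 5.06% of all measured genes. By probe set, 3 of the 11 measured were at least 2-fold lower and 2 at least 2-fold higher, against 10.2% and 2.44% of all measured probe sets with 1 symbol. The median log2 ratio of the 6 genes was -0.50, beside -0.33 for all measured genes.

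**Figure D1:**
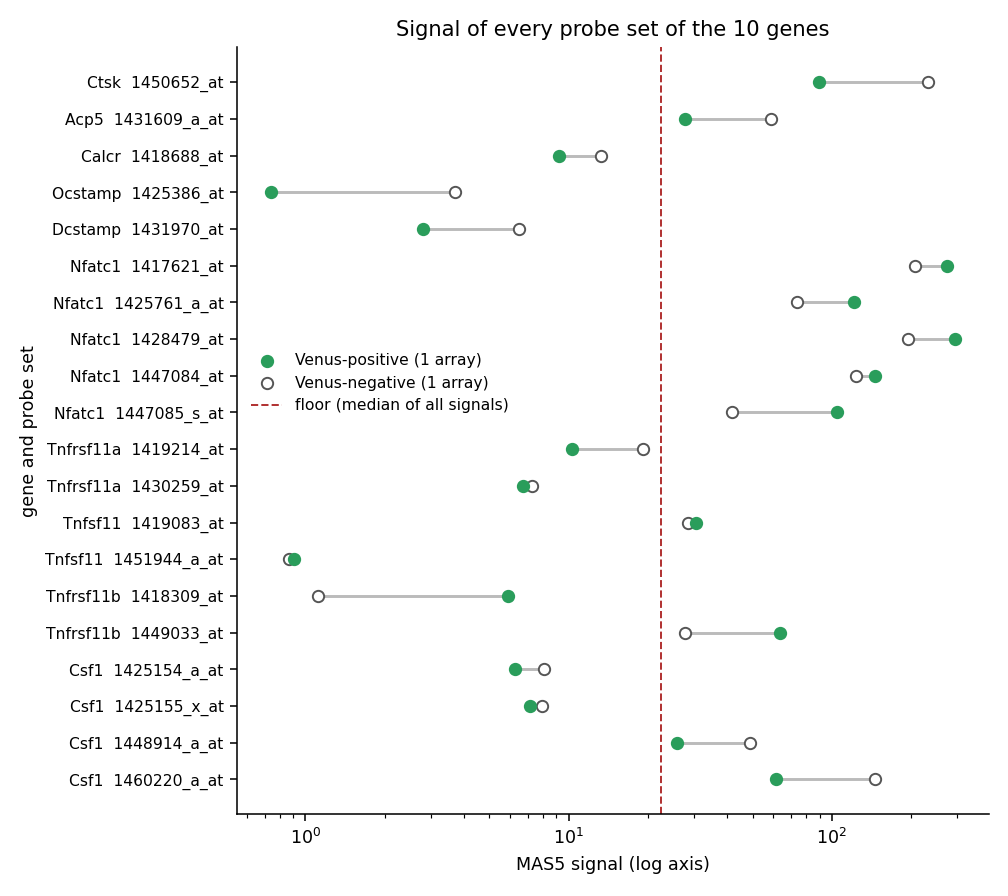
MAS5 signal (log axis, arbitrary units) of all 20 probe sets of the 10 genes. Green points are the Venus-positive array, open points the Venus-negative array, and the dashed line is the floor of 22.5. The 11 probe sets right of the floor belong to Ctsk, Acp5, Nfatc1, Tnfsf11, Tnfrsf11b and Csf1, and the green point lies to the right of the open one in all 5 probe sets of Nfatc1.

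The promoters of the 3 genes with lower signals and of RANKL are shown because motifs of osteoclast and cartilage transcription factors can be read in them. Each is a window of 300 bases, 250 before and 50 after an annotated start, from RefSeq on GRCm38.p6, written along the gene's strand. Capitals mark matches, on either strand, to the NFAT core GGAAA, the SOX core ACAAT, the Mitf motif TCATGTG and the TATA motif TATAAA, none of which overlapped another.
Ctsk, chr3:95498960-95499259, plus strand: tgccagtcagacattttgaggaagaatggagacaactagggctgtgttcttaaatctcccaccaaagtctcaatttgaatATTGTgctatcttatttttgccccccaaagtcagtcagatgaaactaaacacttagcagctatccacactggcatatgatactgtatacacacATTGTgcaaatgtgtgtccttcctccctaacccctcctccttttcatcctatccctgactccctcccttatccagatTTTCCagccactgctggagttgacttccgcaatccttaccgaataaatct
Acp5, chr9:22130549-22130848, minus strand: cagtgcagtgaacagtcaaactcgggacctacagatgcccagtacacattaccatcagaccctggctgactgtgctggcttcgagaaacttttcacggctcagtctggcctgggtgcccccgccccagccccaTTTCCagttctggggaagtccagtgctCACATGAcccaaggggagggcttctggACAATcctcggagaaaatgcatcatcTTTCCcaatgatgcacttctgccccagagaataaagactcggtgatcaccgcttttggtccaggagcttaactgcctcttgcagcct
Csf1, chr3:107760420-107760719, minus strand: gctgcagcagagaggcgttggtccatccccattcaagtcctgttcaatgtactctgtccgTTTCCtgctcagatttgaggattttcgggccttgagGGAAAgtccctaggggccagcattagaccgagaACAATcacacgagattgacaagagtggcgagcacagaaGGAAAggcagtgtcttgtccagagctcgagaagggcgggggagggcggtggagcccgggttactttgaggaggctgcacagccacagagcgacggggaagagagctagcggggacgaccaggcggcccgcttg
Tnfsf11, chr14:78307994-78308293, minus strand: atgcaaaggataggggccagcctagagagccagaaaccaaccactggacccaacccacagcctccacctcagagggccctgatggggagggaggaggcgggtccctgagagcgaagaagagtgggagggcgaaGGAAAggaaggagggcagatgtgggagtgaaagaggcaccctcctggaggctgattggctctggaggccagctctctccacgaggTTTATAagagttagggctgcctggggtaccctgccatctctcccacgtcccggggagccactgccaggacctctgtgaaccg
Windows were read for 6 of the 10 genes, 9 in all. Acp5 has 3 windows, and the one printed was picked after its letters were read, as the only window of the 9 with the Mitf motif, at position -90 from the start. TCATGTG occurs in 3.77% of all 32851 promoter windows of this length, a share for any 1 window, whereas 9 windows were searched for 5 motifs, so nothing is read from the match. ACAAT is present in 31.0% of them, with 2 matches in Ctsk, 1 in Csf1, 1 in the printed Acp5 window and none in the other windows read. GGAAA, found in 61.3% of all windows, is in each of the 4 shown. It is absent from the Tnfrsf11a window and from the Calcr window at chr6:3763574-3763873, which are not printed. The TATA motif lies at position -32 of Tnfsf11, on the opposite strand, and is held by 13.6% of windows. The AP-1 motif TGANTCA, held by 7.81% of windows, was not among the letters of the 9. These matches describe sequence and say nothing of binding.

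Among the resorption effectors, Ctsk encodes cathepsin K, the protease with which osteoclasts cut type I collagen. It is also made by periosteal and perichondrial cells. Its probe set 1450652_at had a signal of 89.1 in Venus-positive cells, against 232 in Venus-negative cells, a log2 ratio of -1.38. Of all measured genes 6.03% had a lower ratio. Acp5 encodes tartrate-resistant acid phosphatase, the classical histochemical stain of osteoclasts. Its probe set 1431609_a_at gave 27.7 in Venus-positive cells and 58.8 in Venus-negative cells, a log2 ratio of -1.09, with the Venus-positive value just above the floor. On the relative scale the log2 ratios were -1.05 for Ctsk and -0.75 for Acp5, so the second was within 2-fold of the median gene. Each rests on 1 probe set, and no second probe set could be set beside it.

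Calcr, the receptor for calcitonin, a hormone that halts resorption, was below the floor on both arrays (9.21 in Venus-positive, 13.2 in Venus-negative cells). Ocstamp and Dcstamp encode the membrane proteins needed for fusion of osteoclast precursors. Ocstamp was at 0.743 in Venus-positive cells and 3.70 in Venus-negative cells, and Dcstamp at 2.79 in Venus-positive, against 6.47 in Venus-negative cells. No fold is given and no direction is read where both values are under the floor. Expression of the fusion genes and the calcitonin receptor was therefore not detectable by this measure in either fraction.

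Nfatc1 was brighter in Venus-positive cells in each of its 5 probe sets. Apart from its place at the head of the osteoclast programme, this calcium-regulated factor works in other tissues such as the heart valves. Probe set 1428479_at, which stands for the gene, had a signal of 294 in Venus-positive cells and 194 in Venus-negative cells, a log2 ratio of 0.60. Probe set 1417621_at gave 273 in Venus-positive cells and 208 in Venus-negative cells, and 1447084_at gave 146 in Venus-positive, against 124 in Venus-negative cells. The remaining pair of probe sets differed more: 1425761_a_at had 122 in Venus-positive cells and 74.1 in Venus-negative cells, and 1447085_s_at had 105 in Venus-positive, against 42.0 in Venus-negative cells. Log2 ratios thus ran from 0.24 to 1.32 (SD 0.42 over the 5 probe sets, which share the same RNA and are no replicates), and 1 of the 5 passed 2-fold. The s_at suffix of that probe set means that its probes can match several transcripts. Relative to the median gene the log2 ratio of Nfatc1 was 0.93, and 5.95% of measured genes had a higher ratio. Nfatc1 and Ctsk, a known target of Nfatc1 in osteoclasts, lay on opposite sides of 0, their log2 ratios 1.97 apart.

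In the RANKL axis the receptor was not detected, the ligand was near the floor and the decoy was higher in Venus-positive cells. Tnfrsf11a (RANK) had signals of 10.3 in Venus-positive cells and 19.1 in Venus-negative cells on probe set 1419214_at. On 1430259_at it had 6.70 in Venus-positive, against 7.25 in Venus-negative cells, so both of its probe sets were below the floor on both arrays. Tnfsf11 (RANKL) was at 30.5 in Venus-positive cells and 28.5 in Venus-negative cells on 1419083_at, a log2 ratio of 0.10, and at 0.906 in Venus-positive, against 0.866 in Venus-negative cells on 1451944_a_at, far below the floor. Relative to the median gene the log2 ratio of RANKL was 0.43, and 17.7% of measured genes had a higher one.

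Tnfrsf11b (osteoprotegerin) had a signal of 63.8 in Venus-positive cells and 27.7 in Venus-negative cells on probe set 1449033_at, a log2 ratio of 1.21. Its relative log2 ratio was 1.54, and 2.10% of measured genes had a higher one. The second probe set, 1418309_at, was below the floor at 5.91 in Venus-positive cells and 1.12 in Venus-negative cells. No direction is read from signals below the floor, so the direction and the size rest on the first probe set. The log2 ratio of the decoy exceeded that of its ligand by 1.11, a difference that scaling of the arrays by a constant cannot alter. With a brighter signal between the floor and 100, 12.8% of 3886 genes were at least 2-fold lower and 1.83% at least 2-fold higher. Between 100 and 300, the range of Ctsk, Nfatc1 and Csf1, these shares were 12.7% and 2.65%.

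Csf1, the survival factor of the macrophage lineage, was lower in Venus-positive cells. Probe set 1460220_a_at had a signal of 61.5 in Venus-positive cells and 146 in Venus-negative cells, a log2 ratio of -1.25. The second measured probe set, 1448914_a_at, gave 25.9 in Venus-positive, against 48.8 in Venus-negative cells, a log2 ratio of -0.91. Relative to the median gene these were -0.92 and -0.58, both within 2-fold. The 2 other probe sets were below the floor on both arrays, with 6.26 in Venus-positive cells and 8.06 in Venus-negative cells on 1425154_a_at, and with 7.16 in Venus-positive, against 7.95 in Venus-negative cells on 1425155_x_at. The 2 measured probe sets were dimmer in Venus-positive cells, as were 77.3% of all measured genes.

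**Figure D2:**
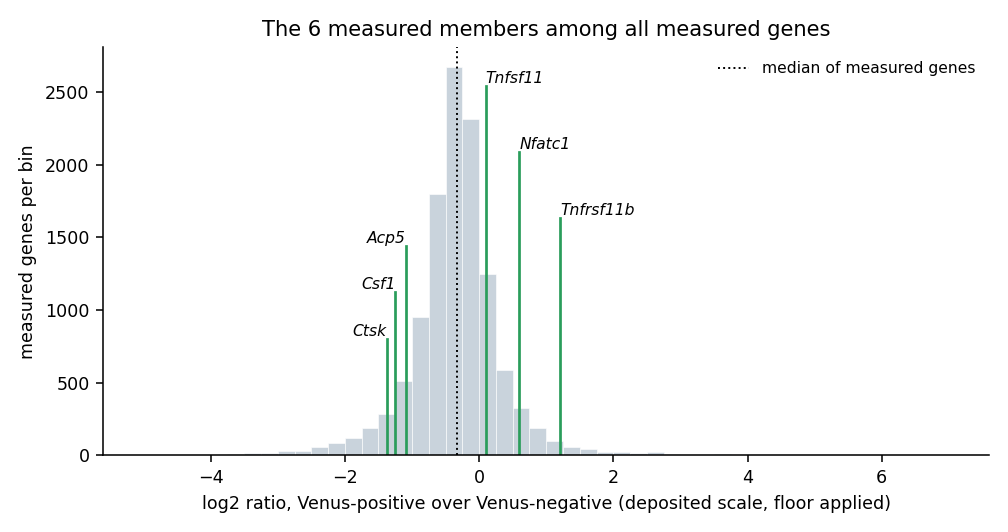
Number of measured genes (y axis) per bin of log2 ratio, Venus-positive over Venus-negative (x axis), with the floor applied. Green lines mark the 6 measured genes, their heights chosen for legibility, and the dotted line is the median of all measured genes at -0.33. Ctsk, Csf1 and Acp5 lie left of -1 and Tnfrsf11b right of 1.

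Markers of other cell types were read on the same arrays. All 15 macrophage markers lay below the median gene, 14 of them at least 2-fold lower, with a median log2 ratio of -2.39. Their summed signal was 345 in Venus-positive cells and 2848 in Venus-negative cells. None was at 0, and 10 of the 15 were below the floor in Venus-positive cells, so these 10 count as measured through the Venus-negative array. With the floor at the 75th percentile 2 macrophage markers were at least 2-fold lower, with a median of -0.81. With the main floor the log2 ratios of Ctsk (-1.38), Acp5 (-1.09) and Csf1 (-1.25) were smaller in size than the macrophage median of -2.39. With the higher floor Ctsk was at -1.02, Csf1 was at -0.36 and Acp5 had no value, so this comparison depends on the floor. In the fibroblast and perichondrium list 5 of 7 genes were at least 2-fold lower, with a summed signal of 9669 in Venus-positive cells and 20562 in Venus-negative cells. Osteoblast markers were mixed: of 6 measured, 3 were at least 2-fold higher (Ifitm5, Sp7 and Ibsp) and 1 lower (Phex), with summed signals of 1830 in Venus-positive, against 2239 in Venus-negative cells. That order of the sums rests on the collagen gene Col1a1 (1189 in Venus-positive, 1900 in Venus-negative cells), and the other 5 genes had a sum of 641 in Venus-positive cells and of 339 in Venus-negative cells. Endothelial, erythroid and skeletal muscle markers were all at least 2-fold lower (7 of 7, 4 of 4 and 5 of 5 measured), and all 10 chondrocyte markers were at least 2-fold higher. Among all measured genes these shares were 11.6% and 2.79%. However, 3 endothelial, 1 erythroid and 2 muscle markers were below the floor in Venus-positive cells. The fibroblast marker Dpt and the osteoblast marker Phex were also below it there. In Venus-negative cells 1 chondrocyte marker and the osteoblast marker Sp7 were below the floor. The direction of all these markers was set by how they came to be measured. With the floor at the 75th percentile no endothelial marker was 2-fold lower, and their median was -0.35 in place of -2.29. Of 8 lymphocyte markers 1 was measured, Cd8a, at 39.2 in Venus-positive cells and 31.2 in Venus-negative cells. The part of these cell types in the ratios of the 10 genes was not tested. In sorted bulk RNA, fewer cells of a type and less RNA per cell cannot be told apart.

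The wider osteoclast pathway was read from 11 lists with 149 genes, of which 114 were measured. Of these 22 were at least 2-fold lower and 8 at least 2-fold higher in Venus-positive cells, 19.3% and 7.02%. The background was 11.6% and 2.79%. Their median log2 ratio was -0.28, beside -0.33 for all measured genes. Relative to the median gene 16 of the 114 were at least 2-fold lower and 12 at least 2-fold higher, against 6.45% and 5.06% of all measured genes. The counts of each list below are to be read beside these shares of all measured genes, 11.6% and 2.79% as deposited and 6.45% and 5.06% on the relative scale. Of the 114 genes, 21 reached the floor in Venus-negative cells alone and 5 in Venus-positive cells alone, and for these the direction was set by how they came to be measured.

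The lists of Csf1r with related cytokine genes and of costimulation had median log2 ratios of -2.02 and -1.45. With the floor at the 25th percentile these were -1.10 and -1.77, so their order depends on the floor. Csf1r, the receptor for Csf1, had a signal of 48.0 in Venus-positive cells and 758 in Venus-negative cells, 15.8-fold lower, and its 3 measured probe sets ran from -3.98 to -1.67 on the log2 scale. Its list had 5 measured genes, 4 of them at least 2-fold lower. The other 3 were the stem cell factor gene Kitl (104 in Venus-positive, 500 in Venus-negative cells), its receptor Kit (25.6 in Venus-positive, 103 in Venus-negative cells) and the cytokine receptor subunit Csf2rb (5.62 in Venus-positive, 91.4 in Venus-negative cells, at least 4.06-fold lower). Other probe sets of Kitl gave log2 ratios up to -0.10. Il34, the second ligand of Csf1r, was below the floor on both arrays. Of 11 costimulation genes 6 were below the floor on both arrays. Of the 5 measured, 3 were at least 2-fold lower, but 4 were below the floor in Venus-positive cells and passed it through the Venus-negative array alone, so the median describes mostly genes that could only be lower. The adaptor genes Tyrobp (20.6 in Venus-positive, 225 in Venus-negative cells) and Fcer1g (11.3 in Venus-positive, 164 in Venus-negative cells) were more than 10-fold and at least 7.29-fold lower, and the kinase gene Tec was at least 2.74-fold lower. Lcp2 was at 5.62 in Venus-positive, against 44.9 in Venus-negative cells, at least 1.997-fold lower. The fifth gene, the phospholipase gene Plcg2, ran the other way, at 115 in Venus-positive cells and 70.9 in Venus-negative cells, a log2 ratio of 0.70 and of 1.03 relative to the median gene. On that relative scale 3 genes of the list were at least 2-fold lower and 1 higher. The receptors Oscar and Trem2 were below the floor on both arrays, so the shared adaptors were measured and these receptors were not. Csf1r and Tyrobp also stand in the macrophage list.

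Genes of acid secretion and matrix breakdown lay mostly near the median gene. Of 13 measured, 2 were at least 2-fold lower and none higher, with a median log2 ratio of -0.20 (0.13 relative to the median gene, where 1 was lower). Car2, a carbonic anhydrase that supplies protons in osteoclasts and is also abundant in red cells, had 98.3 in Venus-positive cells and 949 in Venus-negative cells, 9.65-fold lower. The erythroid markers summed to 344 in Venus-positive and to 4084 in Venus-negative cells, and their part in the Car2 value was not tested. Ostm1, a partner of the chloride transporter Clcn7, was 2.17-fold lower (30.7 in Venus-positive, 66.4 in Venus-negative cells). Tcirg1, the osteoclast proton pump subunit, was at 55.1 in Venus-positive cells and 109 in Venus-negative cells, 1.98-fold lower, and the pump subunit Atp6v1b2 was at 128 in Venus-positive, against 222 in Venus-negative cells. Atp6v0d2, a pump subunit of osteoclasts, was below the floor on both arrays. Mmp9, a gelatinase of osteoclasts, differed little (71.4 in Venus-positive, 77.3 in Venus-negative cells).

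Among the other cathepsins and related genes, 13 were measured, of which 4 were at least 2-fold lower and none higher (2 lower and 1 higher relative to the median gene). Ctss, a cathepsin of antigen-presenting cells, was 8.30-fold lower (47.6 in Venus-positive, 395 in Venus-negative cells) and Ctsc 4.20-fold lower (82.2 in Venus-positive, 345 in Venus-negative cells). Ctso was 2.18-fold and Ctsb 2.01-fold lower. Further probe sets of Ctsc and Ctsb reached log2 ratios of -0.19 and -0.02, so these folds depend on the probe set. Ctsz ran the other way, at 1901 in Venus-positive, against 1054 in Venus-negative cells. Ctsk was thus among several cathepsins with lower signal in Venus-positive cells, its log2 ratio of -1.38 lying between those of Ctsc and Ctso.

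In the attachment and fusion list 1 of 10 measured genes was at least 2-fold lower and 1 at least 2-fold higher. Cd44, a hyaluronan receptor, was 5.16-fold lower (75.5 in Venus-positive, 389 in Venus-negative cells), although a further probe set gave -0.19 on the log2 scale. The tetraspanin gene Cd9 was 3.50-fold higher (1398 in Venus-positive, 399 in Venus-negative cells). Cd47 was at 224 in Venus-positive, against 412 in Venus-negative cells and its receptor Sirpa at 64.4 in Venus-positive, against 98.4 in Venus-negative cells. Itgb3, the integrin subunit with which osteoclasts attach to bone, was below the floor on both arrays.

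The intracellular relay below RANK is shared by most cells, and 14 of its 15 measured genes were within 2-fold. The exception was the adaptor gene Gab2 (37.2 in Venus-positive, 78.4 in Venus-negative cells, 2.11-fold lower), whose second probe set gave -0.30 on the log2 scale. The relative log2 ratio of Gab2 was -0.75, within 2-fold, and none of the list was then 2-fold lower. Map3k7 (170 in Venus-positive, 270 in Venus-negative cells) and Rela (266 in Venus-positive, 387 in Venus-negative cells) were somewhat lower. Lgr4, described in mice as a second RANKL receptor, was at 1471 in Venus-positive cells and 847 in Venus-negative cells, 1.74-fold higher. Its log2 ratio was 0.80, and 1.13 relative to the median gene, where it passed 2-fold.

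Around Nfatc1, the calcineurin and NFAT list held 9 of 10 measured genes within 2-fold and 1 at least 2-fold higher. That gene was Nfatc2, a close relative of Nfatc1, at 719 in Venus-positive cells and 225 in Venus-negative cells, 3.19-fold higher. Its 3 measured probe sets ran from -0.04 to 1.67 on the log2 scale, a wider spread than the 0.24 to 1.32 of Nfatc1. Nfatc4 was at 322 in Venus-positive, against 438 in Venus-negative cells, Nfatc3 at 277 in Venus-positive, against 356 in Venus-negative cells, and the cofactor gene Creb1 at 452 in Venus-positive, against 754 in Venus-negative cells. On the relative scale Nfatc3 was at -0.03 and Nfatc4 at -0.11, and the 3 probe sets of Nfatc4 ran from -0.91 to 0.15, so neither stood apart from the shift of the whole array.

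Of 13 measured lineage transcription factors, 3 were at least 2-fold higher and 1 lower, with a median log2 ratio of 0.08. Relative to the median gene none was 2-fold lower. With the floor at the 25th percentile 4 were at least 2-fold lower and 3 higher, and the median was -0.22. Jdp2, an AP-1 family gene required for osteoclast formation in mice, was 4.62-fold higher (1657 in Venus-positive, 359 in Venus-negative cells). Junb was 2.17-fold higher (424 in Venus-positive, 195 in Venus-negative cells), and Fosl1 at least 2.80-fold higher (63.0 in Venus-positive, 18.6 in Venus-negative cells). Mitf, which with its relatives activates Ctsk and Acp5 in osteoclasts, was 2.06-fold lower (33.4 in Venus-positive, 68.8 in Venus-negative cells). Fos, whose loss in mice abolishes osteoclasts, was nearly level (6896 in Venus-positive, 6518 in Venus-negative cells). Spi1, the gene of the myeloid factor PU.1, had 12.7 in Venus-positive cells and 23.9 in Venus-negative cells, the second just over the floor. The haematopoietic factor genes Ikzf1 (0.948 in Venus-positive, 42.1 in Venus-negative cells) and Prdm1 (10.9 in Venus-positive, 42.1 in Venus-negative cells) were each at least 1.87-fold lower. Irf8 was at 3.36 in Venus-positive cells and 23.1 in Venus-negative cells, at least 1.03-fold lower. These bounds are set by the floor.

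Receptors and signals that set RANKL output differed in both directions, with 3 of 15 measured genes at least 2-fold lower and 2 higher (3 and 3 relative to the median gene). Vdr, the vitamin D receptor through which RANKL is induced, had a signal of 66.8 in Venus-positive cells and 2.61 in Venus-negative cells, at least 2.97-fold higher. Its second measured probe set gave a log2 ratio of 1.25. Osmr, a receptor subunit for oncostatin M, was at 51.5 in Venus-positive, against 19.5 in Venus-negative cells, at least 2.29-fold higher. Il1r1 was at least 3.68-fold lower (6.79 in Venus-positive, 82.9 in Venus-negative cells), Wnt5a 2.69-fold lower (437 in Venus-positive, 1178 in Venus-negative cells) and Lifr 2.61-fold lower (129 in Venus-positive, 336 in Venus-negative cells). On the probe sets that stand for them, Vdr and Osmr passed the floor through the Venus-positive array alone. Il1r1 passed it through the other array alone. The direction of these values was thus set by how the genes came to be measured. The 4 measured probe sets of Wnt5a ran from -1.95 to -0.39 on the log2 scale, so its fold depends on the probe set. The parathyroid hormone receptor gene Pth1r was at 458 in Venus-positive cells and 341 in Venus-negative cells.

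Other relatives of the RANKL axis were mostly dim. Of 9 measured TNF ligands and receptors, Tnfrsf19 was 5.68-fold lower (50.4 in Venus-positive, 286 in Venus-negative cells) and Tnfrsf12a 2.41-fold higher (816 in Venus-positive, 338 in Venus-negative cells). The second probe set of Tnfrsf19 gave a log2 ratio of -0.91, within 2-fold. Tnfrsf1b and Cd40, both under the floor in Venus-positive cells, were at least 1.65- and 1.63-fold lower. Of the calcitonin family, 6 genes were measured and 2 of them were at least 2-fold lower (1 relative to the median gene), while 5 of the 6 were below the floor in Venus-positive cells. Calcrl, a relative of Calcr that is abundant in endothelium, was at least 7.78-fold lower (7.50 in Venus-positive, 175 in Venus-negative cells), and its accessory gene Ramp2 was 2.05-fold lower (57.8 in Venus-positive, 118 in Venus-negative cells). Ramp3 and Adm were at least 1.67- and 1.69-fold lower. The 7 endothelial markers summed to 146 in Venus-positive cells and 828 in Venus-negative cells, and their part in these values was not tested.

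**Figure D3:**
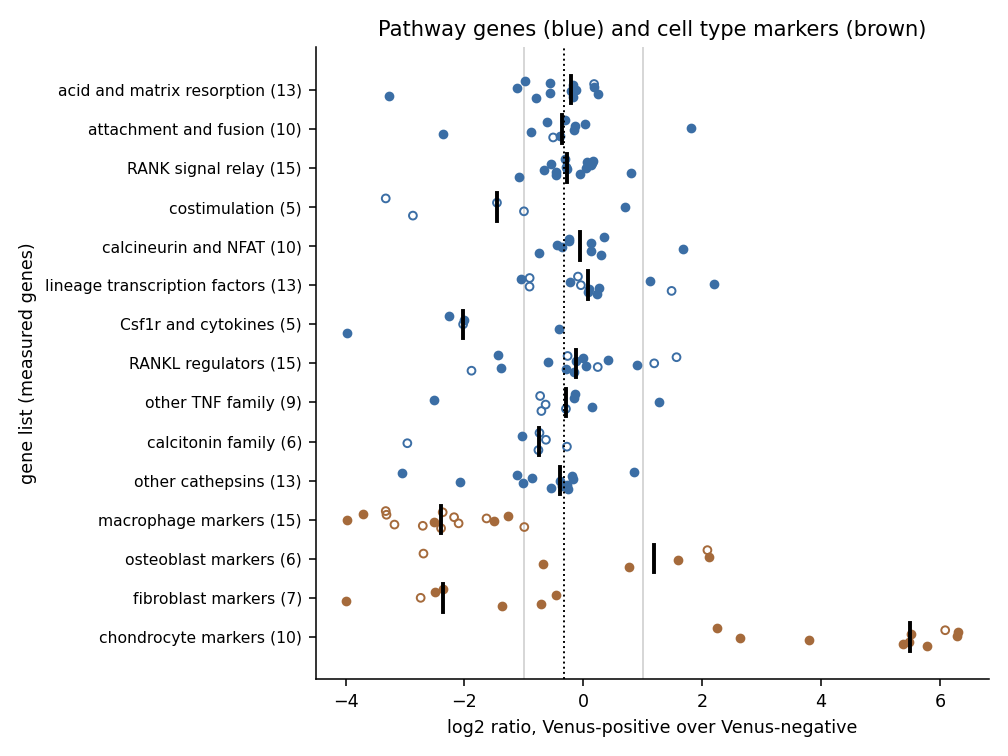
Log2 ratio, Venus-positive over Venus-negative (x axis), for each measured gene of 11 pathway lists (blue) and 4 marker lists (brown), with the number measured in brackets. Open points are lower bounds, black bars are list medians, the dotted line is the median of all measured genes and grey lines mark 2-fold. Medians of the costimulation and Csf1r lists lie at -1.45 and -2.02, and that of the macrophage markers at -2.39.

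The signs of the 6 measured genes did not turn under any of the 9 alternative ways of processing that gave a value. For most of these that was fixed in advance. A floor or an added constant keeps the order of the signals, and the measured probe sets of each gene share a sign. Centring, the scalings and quantile normalization raised all 6 ratios, so they could turn only the negative ones. The kept signs are thus no measure of stability. The 2-fold calls of Acp5, Csf1 and Tnfrsf11b did turn. Ctsk ran from -1.38 to -1.02 on the log2 scale and Csf1 from -1.25 to -0.36. Acp5 ran from -1.09 to -0.64, Nfatc1 from 0.56 to 0.93 and Tnfrsf11b from 0.87 to 1.64. RANKL stayed between 0.06 and 0.55. The 3 genes Acp5, Tnfsf11 and Tnfrsf11b gave no value with the floor at the 75th percentile, since both of their signals were then below it.

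**Figure D4:**
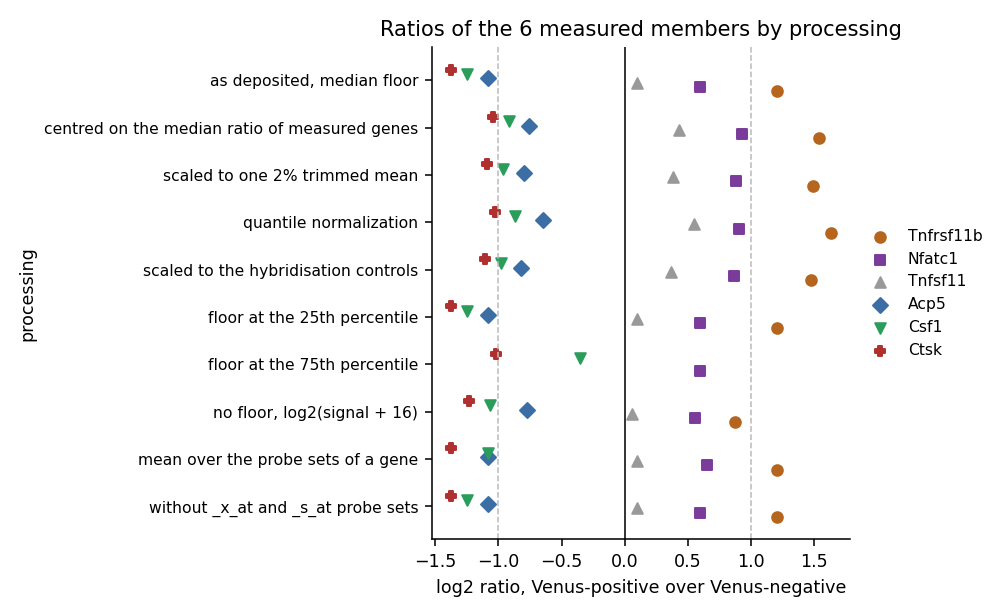
Log2 ratio, Venus-positive over Venus-negative (x axis), of the 6 measured genes under the main processing and 9 alternatives (rows). Dashed lines mark 2-fold. Tnfrsf11b and Nfatc1 lie right of 0 and Ctsk, Csf1 and Acp5 left of it in every row that holds a point for them.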

How the data were processed

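One RNA sample each of Venus-positive and Venus-negative cells was hybridised to an Affymetrix array from 100 ng of total RNA, per the labels' protocols. The authors deposited linear intensity values, made with MAS5 per the submitters' processing notes; the version, the scaling target and calls of detection are not stated in them. All columns of values were used. Of 45037 probe sets without the 64 controls, 34945 had 1 symbol, 932 several and 9160 none in the platform annotation; the first kind was used, and gene IDs matched RefSeq (GRCm38.p6) for 34741. Ratios were computed with pandas 2.3.3 in Python 3.11.15, with sizes of 2-fold and no test. The code was run on simulated data with changes larger than 2-fold, in genes well above the floor and after centring. That run says nothing of calls near 2-fold or near the floor. The number of arrays limits the precision. A fold with 1 side under the floor is a lower bound ("at least"). The members and lists were chosen with earlier results of these data known. Named were the members, Col2a1, Sox9 and up to 4 genes per list with the largest absolute log2 ratio. Oscar, Trem2, Il34, Atp6v0d2, Itgb3, Mmp9, Ctsz, Fos, Spi1, Osmr, Pth1r, Plcg2, Ikzf1, Prdm1, Irf8 and Col1a1 were named after their values were seen, and not every marker the rule picks is printed. Alternatives were centring, scaling to a 2% trimmed mean or to 9 hybridisation controls, normalization by quantiles, a floor at the 25th or the 75th percentile, log2(signal + 16) without a floor, the mean over probe sets, and leaving out _x_at and _s_at probe sets.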

Additional observations from a re-analysis of the deposited data

How the results depend on the processing

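The count of genes at least 2-fold lower, 3 as deposited, was 1 (Ctsk) after centring, trimmed-mean scaling, quantile normalization, scaling to hybridisation controls, or with the floor at the 75th percentile (signal 114). The count at least 2-fold higher, 1 as deposited, was 0 with that floor and with log2(signal + 16). Quantile normalization gave log2 ratios of -1.03 for Ctsk, -0.64 for Acp5, -0.87 for Csf1, 0.55 for Tnfsf11 and 1.64 for Tnfrsf11b. The higher floor gave -1.02 for Ctsk and -0.36 for Csf1, since it raises their Venus-positive signals. The floor at the 25th percentile (signal 5.19) let 3 further genes be measured, with log2 ratios of -0.89 for Tnfrsf11a, -0.52 for Calcr and -0.32 for Dcstamp. Pathway genes at least 2-fold lower, 22 as deposited, were 40 with the lower floor and 10 with the higher, where 5 in place of 8 were at least 2-fold higher. The median of the osteoblast markers turned to -0.13 with the higher floor, in place of 1.18. With that floor the macrophage markers at least 2-fold lower fell to 2, against 14, and the endothelial ones to 0, against 7, with medians of -0.81 in place of -2.39 and -0.35 in place of -2.29. With the lower floor the median of the Csf1r list was -1.10 in place of -2.02, of costimulation -1.77 in place of -1.45, of the calcitonin family -1.33 in place of -0.75 and of the transcription factors -0.22 in place of 0.08. The cause was not tested beyond these constructions. Of 96 values on the 10 genes and the pathway as a whole, 17 moved by at least 0.34, the pooled SD of log2 ratios between probe sets of a gene, or for counts by more than 1.5 times. Of the other 79, 29 were identical to the main value, many because a gene with 1 measured probe set above the floor cannot change with a lower floor or another rule on probe sets, so the 79 are no measure of stability. Centring moved every ratio by 0.33, just under that limit, and still ended the 2-fold calls of Acp5 and Csf1. No paired analysis was possible because each group holds 1 array, and no replicate could be left out. Signals near the floor, those of Tnfsf11, Acp5 and the Venus-negative value of Tnfrsf11b, limit what can be said of these genes.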
